A study of Mus musculus with 8 samples.

Results

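The genes described here are 10 hepatocyte genes of the pericentral zone that depend on Wnt signaling, Glul, Oat, Slc1a2, Rhbg, Lhpp, Lgr5, Rnf43, Znrf3, Axin2 and Tbx3. They were taken by symbol from the 25010 genes of an RNA-Seq table of mouse liver, and all 10 were present and passed the minimum of 10 normalized counts on average, as did 15578 genes of the table. The study compared wild-type (WT) mice with whole-body LXRα/β double-knockout (LXRDKO) mice, which carry deletions of both liver X receptors, Nr1h3 (LXRα) and Nr1h2 (LXRβ), in every tissue. Both groups were 8 wk old, were on a C57BL/6 background, ate standard chow and were fasted for 4 to 6 h before their livers were taken, and the knockout alleles had been backcrossed to that background. Each group held 2 livers, with 1 library per mouse and polyadenylated RNA of the frozen tissue as the material. Chromatin accessibility, the other assay of the series, was not analysed here. Libraries held between 55772659 and 72842744 reads on genes, WT replicate 2 being the deepest. Nr1h3 had 5785 and 5322 normalized counts in WT livers and 1712 and 1826 in LXRDKO livers. Nr1h2 had 2987 and 3110 against 925 and 1003, so both transcripts were lower, though not absent, in the livers labeled LXRDKO.

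Hepatocytes along the path from the portal vein to the central vein do different work. Around the central vein, endothelial cells release Wnt ligands and R-spondin, which keep β-catenin active in the nearest hepatocytes. Those cells take up glutamate and ammonium that escaped the urea cycle upstream and store the nitrogen as glutamine. They also express the receptors and inhibitors by which the Wnt signal regulates itself. Since whole liver was measured, fewer pericentral hepatocytes and less RNA per pericentral hepatocyte cannot be told apart.

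None of the 10 genes passed an adjusted P value of 0.05 between genotypes with limma, with DESeq2 or with the quasi-likelihood test of edgeR. In the limma fit 0.321% of all genes tested passed, in DESeq2 3.59% and in edgeR 0.315%. At an unadjusted P value of 0.05, 2 of the 10 passed in limma, Axin2 and Lhpp, against 13.3% of all genes tested. The most regular feature of the 10 genes lay within the WT group. WT replicate 2 was the lowest of the 4 livers for all 10, whereas it was the lowest for 25.5% of all genes tested. WT replicate 1, LXRDKO replicate 1 and LXRDKO replicate 2 were the lowest for 0 of the 10, against 24.9%, 23.9% and 25.7% of all genes tested. Slc1a2, a glutamate transporter, departed from the other 9 by its lower mean in LXRDKO livers.

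The upstream promoter sequences of Glul and Slc1a2 are shown because this pair, which handles the same substrate in the same cells, had a ratio that differed between genotypes with little spread within them, as described further on. Each run is the 250 bases before the RefSeq start site on GRCm38.p6, 5′ to 3′. Capitals mark matches to the searched motifs, which were CTTTGAT and CTTTGAA (letters bound by TCF/LEF factors, the partners of β-catenin), AGGTCA (the half-site of the repeat bound by LXR with RXR) and a perfect DR4, in which AGGTCA is followed by any 4 bases and a second AGGTCA in the same direction, each searched on both strands. The Glul run lies at chr1:153899679-153899928 and the Slc1a2 run at chr2:102706188-102706437, both on the + strand.
Glul: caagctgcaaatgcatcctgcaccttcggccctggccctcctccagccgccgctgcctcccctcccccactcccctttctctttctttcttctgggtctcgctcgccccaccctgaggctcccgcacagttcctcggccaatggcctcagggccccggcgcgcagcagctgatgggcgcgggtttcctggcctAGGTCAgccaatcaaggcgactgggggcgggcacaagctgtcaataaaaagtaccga
Slc1a2: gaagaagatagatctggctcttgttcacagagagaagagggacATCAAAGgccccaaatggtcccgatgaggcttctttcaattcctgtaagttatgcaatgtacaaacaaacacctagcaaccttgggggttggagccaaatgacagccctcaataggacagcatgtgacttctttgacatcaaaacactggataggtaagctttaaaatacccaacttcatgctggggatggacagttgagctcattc

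In the Glul window the half-site AGGTCA began at position −57 relative to the start site. The Slc1a2 window held ATCAAAG, which is CTTTGAT read on the other strand, from position −207. A half-site also began at position 45 after the Slc1a2 start site, beyond the printed run. The search covered 250 bases before and 50 after each start site. A match was found in no window of Oat, Axin2 or Rnf43 (the last with 2 windows), which says only that these letters are not there. Windows of Lgr5, Tbx3, Rhbg, Lhpp and Znrf3 were not matched in the promoter table. Of 32851 windows in that table, 3.73% held CTTTGAT, 5.14% CTTTGAA, 16.3% the half-site and 0.0152% a perfect DR4, and the half-site count includes the DR4 matches. In the GENCODE annotation Slc1a2 starts at 102658659, so its RefSeq window lies inside the annotated gene.

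Levels can be compared between genes per length only, and normalized counts were divided by the length of the merged exons for this. Oat was the most abundant, with a mean of 22886 normalized counts per kb over the 4 livers, followed by Glul with 11799. The other enzymes and transporters were far lower, with 1874 for Lhpp, 973 for Slc1a2 and 79.4 for Rhbg. Among the Wnt feedback genes and Tbx3 the order was Tbx3 (592 per kb), Rnf43 (362), Znrf3 (168), Axin2 (145) and Lgr5 (36.5). The ranges over 4 livers overlapped for 3 pairs of neighbors in this order, Lhpp with Slc1a2, Znrf3 with Axin2, and Rhbg with Lgr5. Compared within each liver, Lhpp was still above Slc1a2 and Rhbg above Lgr5 in every liver. Axin2 was above Znrf3 in LXRDKO replicate 2 (192 against 168 per kb) and below it in the other livers. For all other neighbors the ranges did not overlap.

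**Figure D1:**
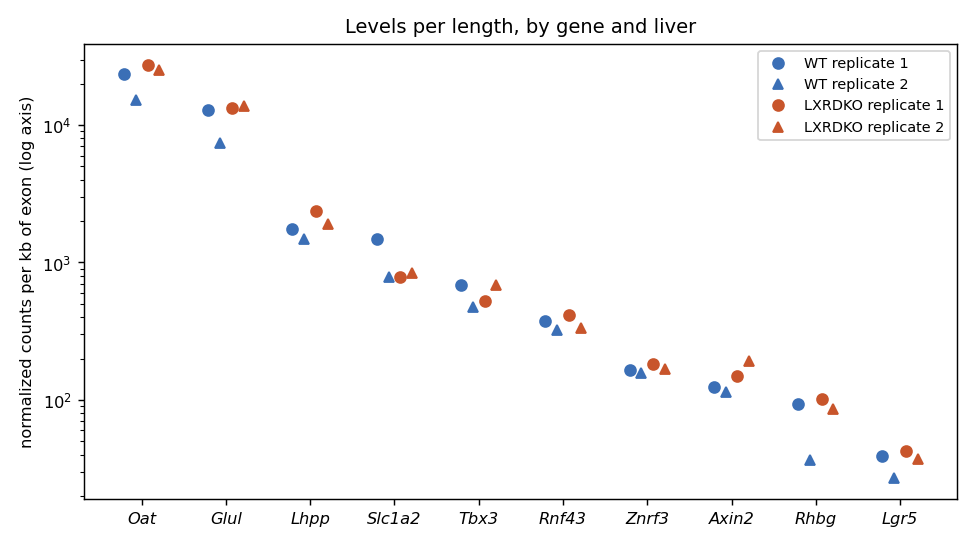
Normalized counts per kb of exon (log axis) of the 10 genes in each liver, ordered by their mean, with circles for replicate 1 and triangles for replicate 2 of WT (blue) and LXRDKO (orange). Oat and Glul stand above all others, and the spread among livers of a gene is small beside the distance from Oat (mean 22886) to Lgr5 (36.5).

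Among the genes of nitrogen handling, Glul encodes glutamine synthetase, the enzyme that joins ammonium to glutamate in the last hepatocytes before the central vein. Glul lies on chromosome 1 from 153899944 to 153909723 (GRCm38, + strand) and had 42620 and 24556 normalized counts in WT livers and 43956 and 45696 in LXRDKO livers. WT replicate 1 was close to both LXRDKO livers, while WT replicate 2 was far below them, so the groups did not overlap but the gap within WT was wider than that between WT replicate 1 and LXRDKO. The log2 fold change was 0.47 (standard error 0.26, 95% confidence interval −0.17 to 1.11, adjusted P = 0.516, limma). Oat encodes ornithine aminotransferase, which passes the amino group of ornithine on to make glutamate. Oat lies on chromosome 7 from 132557478 to 132576398 (− strand) and had 55840 and 36008 normalized counts in WT against 65038 and 59155 in LXRDKO. Its livers took the same arrangement, without overlap between genotypes and with WT replicate 2 far below the other 3. The log2 fold change of Oat was 0.47 (standard error 0.22, interval −0.09 to 1.02, adjusted P = 0.443, limma).

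Lhpp encodes a phosphatase that acts on phosphohistidine and pyrophosphate, and its gene, on chromosome 7 from 132610638 to 132706420 (+ strand), lies 34.2 kb from that of Oat. Lhpp had 4260 and 3559 normalized counts in WT against 5687 and 4605 in LXRDKO, and the groups did not overlap. The log2 fold change of Lhpp was 0.39 (standard error 0.14, interval 0.04 to 0.75, unadjusted P = 0.0365, adjusted P = 0.341, limma). Rhbg, an ammonium transporter of the plasma membrane, lies on chromosome 3 from 88242874 to 88254709 (− strand). Its normalized counts were 180 and 70.4 in WT and 197 and 167 in LXRDKO, so WT replicate 1 lay between the LXRDKO livers. The WT livers of Rhbg differed by 2.56-fold, the widest gap of the 10 genes, and its lowest value rested on 83 reads. Rhbg had the largest log2 fold change, 0.68, and also the widest error (standard error 0.45, interval −0.43 to 1.80, adjusted P = 0.595, limma).

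Slc1a2 encodes the glutamate transporter that brings the substrate of glutamine synthetase into the pericentral cell. On chromosome 2 from 102658659 to 102790784 (+ strand), Slc1a2 had 19463 and 10213 normalized counts in WT against 10346 and 11095 in LXRDKO. WT replicate 1 stood alone as the highest liver, and the other 3 lay close together. The log2 fold change of Slc1a2 was −0.40 (standard error 0.29, interval −1.12 to 0.33, adjusted P = 0.638, limma), the only negative value among the 10. Slc1a2 lies 11.5 Mb from Nr1h3 on chromosome 2, one of the deleted loci.

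The Wnt feedback genes include 3 for membrane proteins that act on receptors. Lgr5 is a receptor for R-spondins, and Rnf43 and Znrf3 are ubiquitin ligases that remove Frizzled receptors from the membrane until R-spondin takes them away. Lgr5, on chromosome 10 from 115450311 to 115587780 (− strand), had 404 and 276 normalized counts in WT against 437 and 381 in LXRDKO. The genotypes overlapped, and the log2 fold change was 0.29 (standard error 0.22, interval −0.26 to 0.84, adjusted P = 0.654, limma). Rnf43, on chromosome 11 from 87662722 to 87735539 (+ strand), had 2471 and 2106 in WT and 2717 and 2202 in LXRDKO, again with overlap. Its log2 fold change was 0.10 (standard error 0.14, interval −0.25 to 0.45, adjusted P = 0.829, limma). Its paralog Znrf3, on chromosome 11 from 5276324 to 5444847 (− strand), had 1309 and 1232 in WT and 1429 and 1327 in LXRDKO. Znrf3 varied least of the 10 genes within WT, and its groups did not overlap although they differed by a log2 fold change of only 0.12 (standard error 0.10, interval −0.14 to 0.37, adjusted P = 0.701, limma).

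Axin2, a scaffold of the complex that destroys β-catenin, is a direct Wnt target and is widely used as a readout of the pathway. It lies on chromosome 11 from 108920349 to 108950783 (+ strand) and had 686 and 629 normalized counts in WT against 815 and 1059 in LXRDKO. Both LXRDKO livers were above both WT livers, and the WT livers were close to each other. The log2 fold change of Axin2 was 0.50 (standard error 0.16, interval 0.10 to 0.90, unadjusted P = 0.0223, adjusted P = 0.294, limma). Tbx3, a T-box repressor, lies on chromosome 5 from 119670669 to 119684724 (+ strand) and had 4536 and 3124 in WT and 3492 and 4533 in LXRDKO. The 2 genotypes covered almost the same range, and the log2 fold change was 0.08 (standard error 0.21, interval −0.45 to 0.61, adjusted P = 0.919, limma).

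**Figure D2:**
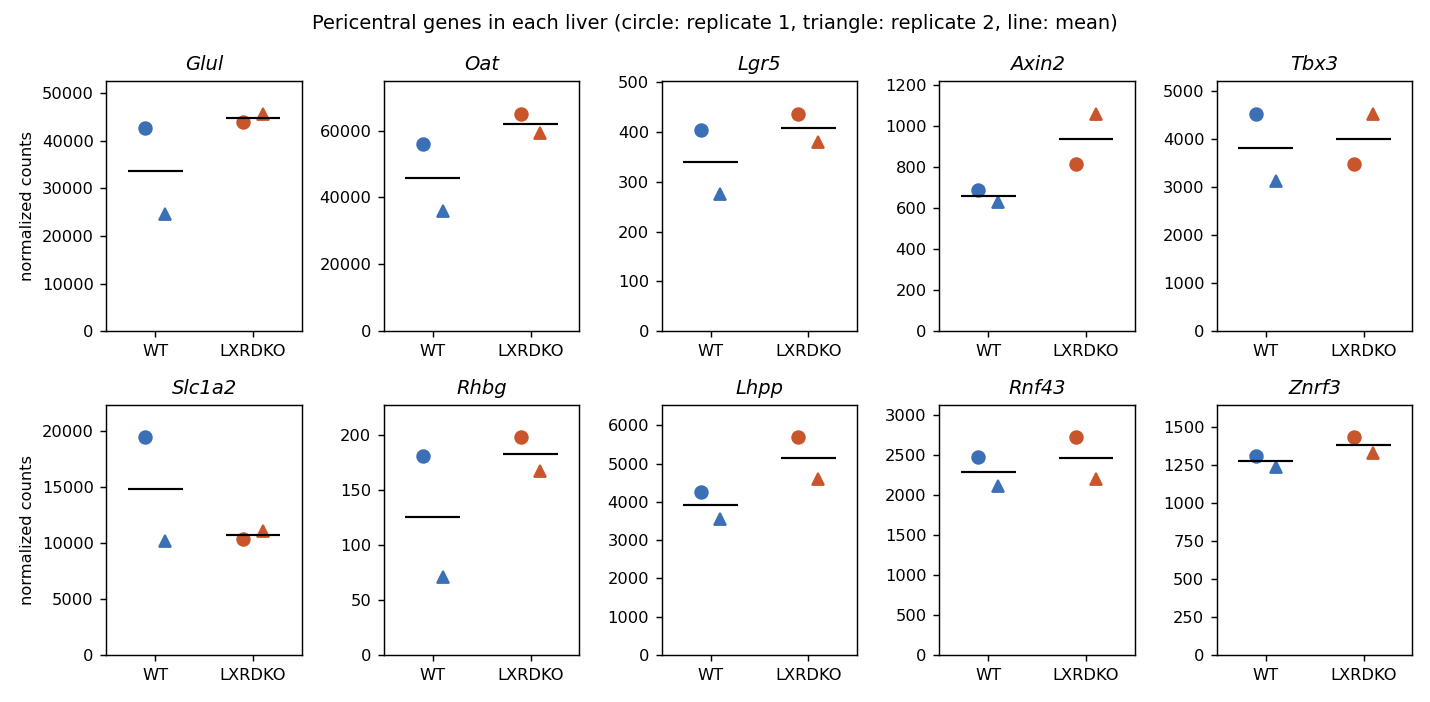
Normalized counts of each gene in the 2 WT (blue) and 2 LXRDKO (orange) livers, with a circle for replicate 1, a triangle for replicate 2 and a line for the group mean, each axis starting at 0. The WT triangle is the lowest point in all 10 panels, and for Slc1a2 the WT circle (19463) stands alone above the other 3 livers.

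Of the 10 genes, 9 had a positive log2 fold change, as had 49.1% of all genes tested. The median of the 10 was 0.34, and that of all genes tested was −0.0046. Both LXRDKO livers were above both WT livers for 5 of the 10 (Glul, Oat, Axin2, Lhpp and Znrf3), against 21.7% of all genes tested. For 0 of the 10 were both LXRDKO livers below both WT livers, against 23.0% of all genes tested. These genes share cells and livers and are not independent replicates. At 2 livers per genotype the smallest P value of an exact permutation test (two-sided) of 1 gene is 0.333.

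The gap between the WT livers was wider than the genotype difference for 7 of the 10 genes. The share over all genes tested was not computed for this count, so the count is not offered as a trait of these genes. On the log2 scale WT replicate 1 exceeded WT replicate 2 by a median of 0.54 over the 10 genes, and LXRDKO replicate 1 exceeded LXRDKO replicate 2 by a median of 0.12. Both medians keep the sign of each difference, and the differences within LXRDKO ran from −0.38 for Axin2 to 0.30 for Lhpp. Over all genes tested the signed median within WT was 0.0027. The median absolute gap, which ignores the sign, was 0.18 within WT and 0.17 within LXRDKO over all genes tested. It was not computed for the 10 genes. For 6 of the 10 (Glul, Oat, Slc1a2, Rhbg, Lgr5 and Tbx3) WT replicate 1 was above WT replicate 2 by over 0.5, against 7.23% of all genes tested. The gap was 1.34 for Rhbg, 0.93 for Slc1a2, 0.80 for Glul and 0.63 for Oat, the genes of nitrogen handling, and 0.26 for the phosphatase gene Lhpp. For the Wnt feedback genes and Tbx3 the gaps were 0.55 for Lgr5, 0.54 for Tbx3, 0.23 for Rnf43, 0.12 for Axin2 and 0.09 for Znrf3.

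The fold changes of the 10 genes depended on which WT liver stood for the genotype. Against WT replicate 1 alone, the 2 LXRDKO livers were both higher for 5 genes, both lower for 2 (Tbx3 and Slc1a2) and on either side for 3. For Tbx3, LXRDKO replicate 2 was nearly equal to WT replicate 1 (4533 against 4536 normalized counts). Against WT replicate 2 alone, both LXRDKO livers were higher for all 10. Without WT replicate 1 the median log2 fold change of the 10 genes was 0.54, and without WT replicate 2 it was 0.043. Glul had a log2 fold change of 0.87 without WT replicate 1 (adjusted P = 0.0319, limma) and of 0.073 without WT replicate 2 (adjusted P = 0.896, limma). Slc1a2 did the opposite, with 0.069 without WT replicate 1 (adjusted P = 0.912, limma) and −0.86 without WT replicate 2 (adjusted P = 0.0358, limma). In these fits the lone WT liver is assumed to vary as the LXRDKO livers do, and 1.70% and 1.01% of all genes tested passed. Axin2 moved little, from 0.56 to 0.44, and passed in neither.

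**Figure D3:**
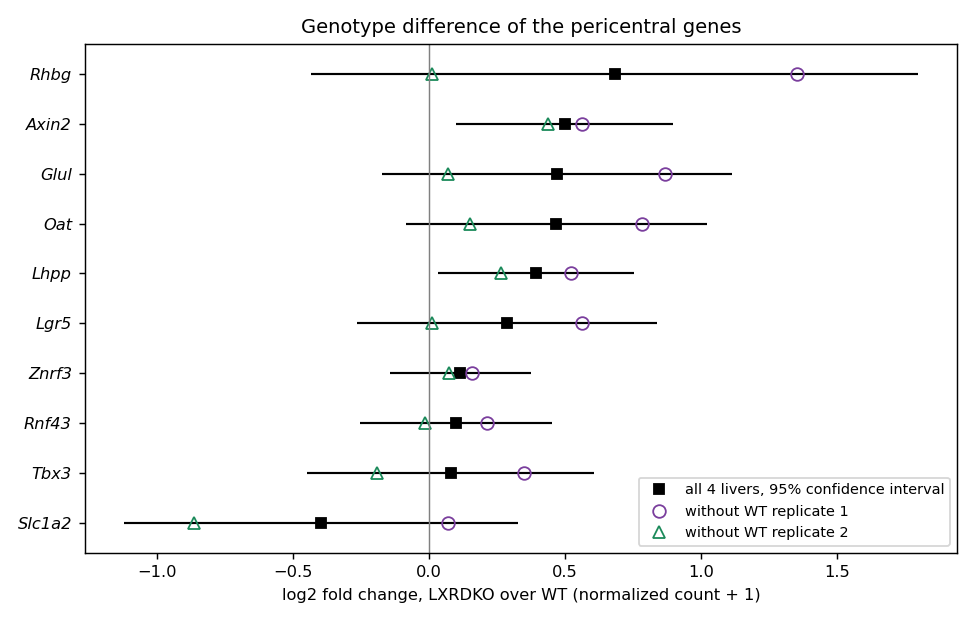
Log2 fold changes of LXRDKO over WT for the 10 genes, with squares for all 4 livers, horizontal lines for the 95% confidence intervals, and open symbols for the values without WT replicate 1 (circles) or without WT replicate 2 (triangles). The circles lie to the right of the triangles for every gene, most widely for Rhbg, and Axin2 and Lhpp are the genes whose interval lies above 0.

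Other pericentral genes also tended to be lower in WT replicate 2, while the median gap of periportal genes was near 0, and no test compares these lists. Of 25 other pericentral genes, such as those for cytochromes of drug metabolism, 20 were lowest in WT replicate 2, and WT replicate 1 exceeded it by a median of 0.43 on the log2 scale. Of 25 periportal genes, such as those of the urea cycle and gluconeogenesis, 5 were lowest in WT replicate 2 and the median gap was −0.07. WT replicate 1 was above WT replicate 2 by over 0.5 for 12 of the 25 other pericentral genes and 0 of the 25 periportal genes. It was above WT replicate 2 by any amount for 21 and 8 of them. Some periportal genes had wide gaps in the other direction, such as Aldh1b1 (−0.96), Ctsc (−0.69) and Cdh1 (−0.64). The summed level of 9 hepatocyte marker genes was 7341430 and 8379130 normalized counts in WT livers and 7722480 and 6981380 in LXRDKO livers, so the sum was not lower in WT replicate 2. Most of that sum was Alb, with 4940810 and 5959090 in WT livers. Of the 9 markers, 3 were lowest in WT replicate 2. WT replicate 2 was the most deeply sequenced liver, and the part of depth in its lower values was not tested.

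Between genotypes, 0 of the 25 other pericentral genes and 0 of the 25 periportal genes passed in limma, with 7 and 5 of them at an unadjusted P value under 0.05. DESeq2 called 1 of the other pericentral genes, Aldh3a2, lower, and 4 periportal genes, Asl, Etnppl, Sds and Tat, higher. Aldh3a2, an aldehyde dehydrogenase for fatty aldehydes, had 29883 and 27031 normalized counts in WT against 17381 and 20304 in LXRDKO (log2 fold change −0.60, adjusted P = 0.150, limma). Cyp2c54, a cytochrome P450 with the next smallest unadjusted P value among the pericentral genes, had 7875 and 3708 against 14095 and 11266 (1.22, adjusted P = 0.247, limma). Asl, which encodes the urea cycle enzyme argininosuccinate lyase, had 38156 and 37829 in WT and 63632 and 69500 in LXRDKO (0.81, adjusted P = 0.0893, limma). Etnppl, an ethanolamine-phosphate lyase, had 11111 and 12178 against 21579 and 16385 (0.69, adjusted P = 0.161, limma). The median log2 fold change was 0.34 for the other pericentral genes and 0.19 for the periportal genes. Without WT replicate 2 the pericentral median was 0.11 and the periportal median 0.23, the opposite order. The periportal median was 0.091 without WT replicate 1 and 0.12 without LXRDKO replicate 2.

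**Figure D4:**
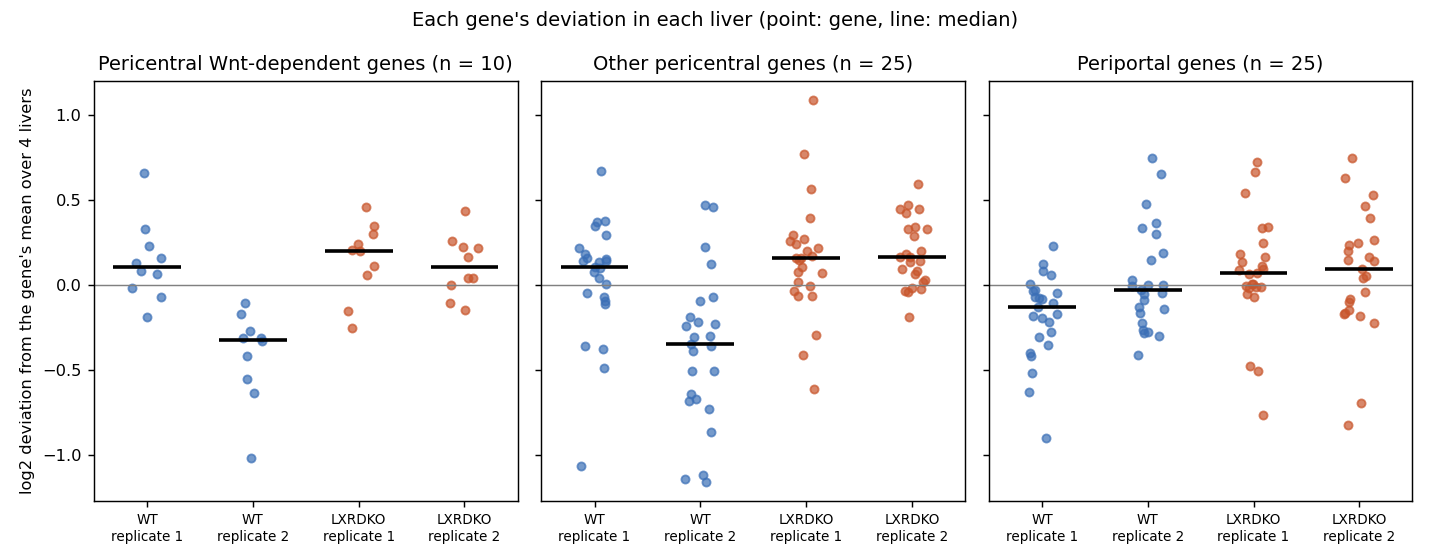
Log2 deviation of each gene from its own mean over the 4 livers, by liver, for the 10 Wnt-dependent genes, 25 other pericentral genes and 25 periportal genes, with a point per gene and a line for the median. In WT replicate 2 the medians are −0.32, −0.35 and −0.03, so that both pericentral panels dip there and the periportal panel does not.

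The pattern most like that of Glul over the 4 livers, by Euclidean distance of centered log2 values among 187 genes of the lists, was that of Aldh1a1 (distance 0.0856). Lect2 was next (0.12), then Oat (0.178), all of them pericentral genes. Aldh1a1, a retinaldehyde dehydrogenase, had 59579 and 34626 normalized counts in WT against 60409 and 67987 in LXRDKO. Lect2, a secreted hepatocyte protein, had 4562 and 2473 against 4836 and 5145. Slc1a2 ranked 105 among these genes, at a distance of 0.872 from Glul.

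The ratio of Glul to Slc1a2 was nearly constant within a genotype and differed between genotypes. Glul exceeded Slc1a2 by 2.19-fold and 2.40-fold in the WT livers and by 4.25-fold and 4.12-fold in the LXRDKO livers, in normalized counts. The log2 ratio of Glul to Slc1a2 was thus higher in LXRDKO by 0.87, while the livers of 1 genotype differed by 0.13 within WT and 0.04 within LXRDKO. The contrast was picked out after the values were seen, so it has no test. Of 15561 genes above 0 in every liver, 47.5% had a ratio to Glul that was lower in each LXRDKO liver than in each WT liver. Relative to the other 9 genes Slc1a2 was lower on average in LXRDKO livers, from −1.09 on the log2 scale against Rhbg to −0.48 against Tbx3. That direction follows from Slc1a2 having the only negative log2 fold change of the 10, and is no further observation. Of the 45 pairs that the 10 genes form, 17 had ratios that did not overlap between genotypes, and 7 of these involved Slc1a2. The share over pairs of all genes was not computed, so these counts are not offered as a trait of the 10 genes. For 1 pair without overlap, the P value of a two-sided exact permutation test is 0.333.

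**Figure D5:**
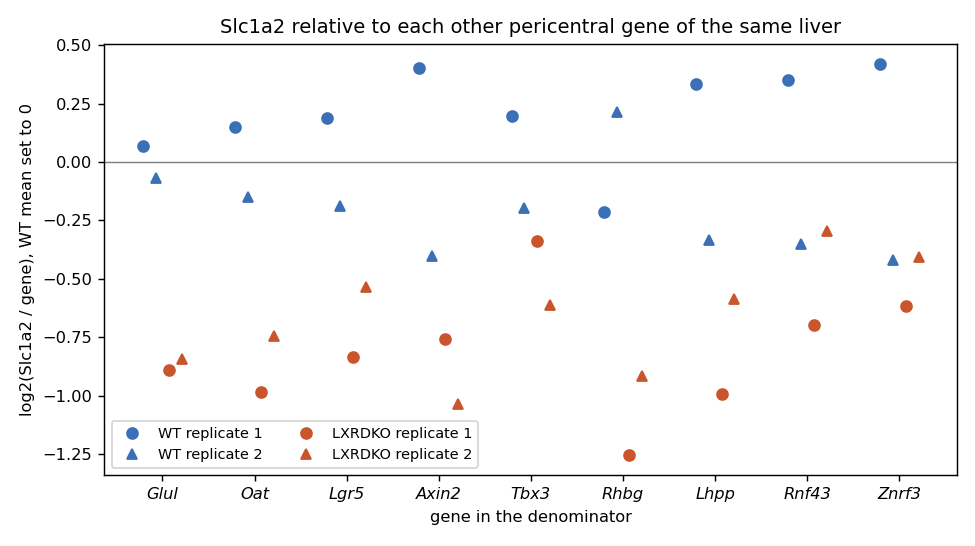
Log2 ratio of Slc1a2 to each other gene in the same liver, with the WT mean of each ratio set to 0, for WT (blue) and LXRDKO (orange) livers. The LXRDKO points lie below both WT points for 7 of the 9 genes, the tightest being the ratio to Glul, while those to Rnf43 and Znrf3 overlap. Of 15561 genes above 0 in every liver, 47.5% had a ratio to Glul that was lower in both LXRDKO livers. For the other denominators this share was not computed.

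Genes with related work in ammonium, glutamate and ornithine handling were examined beside them. Of 19 tested, 1 passed in limma, 8 had an unadjusted P value under 0.05, and 12 had a positive and 7 a negative log2 fold change. DESeq2 called 2 of them, both higher. Got1, the cytosolic aspartate aminotransferase, had 16831 and 20585 normalized counts in WT against 50704 and 57568 in LXRDKO, a rise of 1.54 on the log2 scale (adjusted P = 0.0333, limma). Slc1a3, another glutamate transporter, named after its values were seen, had 21.7 and 21.2 normalized counts in WT against 0 and 2.14 in LXRDKO (adjusted P = 0.137, limma), and both LXRDKO values are under what 3 reads are worth. The median of the list was 0.093, or 0.16 without WT replicate 2. WT replicate 2 was the lowest liver for 6 of these 19 genes.

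No Wnt ligand or secretion gene passed in limma, and 2 of the 12 tested had an unadjusted P value under 0.05. Wnt11 had 9.12 and 0.849 normalized counts in WT against 19.0 and 27.9 in LXRDKO, the lowest of these resting on a single read (log2 fold change 2.47, adjusted P = 0.324, limma). Wnt4 had 103 and 115 against 146 and 181 (0.58, adjusted P = 0.360, limma). Rspo3, Wnt2 and Wnt9b, the ligands of central vein endothelium, are named here for that role, after their values were seen. Rspo3, an R-spondin, had 258 and 221 in WT and 266 and 288 in LXRDKO. Wnt2 had 127 and 57.7 in WT against 70.2 and 36.4, and Wnt9b had 90.1 and 30.6 against 39.9 and 41.8. Both Wnt ligands were over 2 times lower in WT replicate 2 than in WT replicate 1, as Rhbg was, and the part of this in the values of the 10 genes was not tested.

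Among 13 receptor genes tested, 0 passed in limma and 3 had an unadjusted P value under 0.05, and their log2 fold changes had a median of −0.13. Leaving out LXRDKO replicate 1 gave a median of −0.035, and leaving out WT replicate 1 gave −0.19. Fzd4, a Frizzled receptor, had 6556 and 5670 normalized counts in WT against 4091 and 4496 in LXRDKO (−0.51, adjusted P = 0.160, limma) and passed in DESeq2 (adjusted P = 0.0255). Lrp6, the co-receptor, had 9294 and 9109 against 6574 and 7933 (−0.35, adjusted P = 0.304, limma). Both genes had lower values in both LXRDKO livers than in either WT liver. Of the extracellular antagonists 7 of 14 passed the filter and 0 passed in limma, with 3 at an unadjusted P value under 0.05, while DESeq2 called 2 higher. Sfrp5, a decoy for Wnt ligands, had 4.56 and 6.79 normalized counts in WT against 30.4 and 62.2 in LXRDKO (2.76, adjusted P = 0.129, limma, and 0.00904, DESeq2). Dkk3, of the Dickkopf family, had 83.3 and 84.9 against 184 and 177 (1.09, adjusted P = 0.131, limma, and 0.0163, DESeq2).

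Inside the cell, 0 of 16 genes of the destruction complex and its regulators passed in limma and 0 had an unadjusted P value under 0.05. Their median was −0.043, and it ranged from −0.076 to −0.035 when a liver was left out. Axin1, the constitutive counterpart of Axin2, had 1692 and 1789 normalized counts in WT against 1581 and 1454 in LXRDKO (log2 fold change −0.20, adjusted P = 0.477, limma). Amer1 had 800 and 765 against 720 and 546 (−0.32, adjusted P = 0.485, limma). Of 13 TCF/LEF factors and β-catenin cofactors, 0 passed and 1 had an unadjusted P value under 0.05, with a median of −0.13, or −0.059 without LXRDKO replicate 2. Tle4, a co-repressor, had 948 and 1085 in WT and 839 and 780 in LXRDKO (−0.33, adjusted P = 0.352, limma), and Tcf7l1 had 605 and 798 against 573 and 515 (−0.35, adjusted P = 0.457, limma).

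Markers of the liver's cell types are given beside these values, in which their part was not tested. Of 15 central vein and sinusoidal endothelial markers, 13 had a negative log2 fold change and 1 passed in limma, Kdr, with 2447 and 2164 normalized counts in WT against 1116 and 934 in LXRDKO (−1.17, adjusted P = 0.0498). The summed endothelial level was 18033 and 16262 in WT and 14598 and 11144 in LXRDKO. Of 10 Kupffer cell markers 3 passed in limma, all lower in LXRDKO, namely Cd5l (−7.85, adjusted P = 0.00052), Marco (−3.02, adjusted P = 0.0446) and Clec4f (−2.93, adjusted P = 0.0267). Of the 10, 8 had a negative log2 fold change, and 6 were lower in both LXRDKO livers than in either WT liver. The 2 positive ones were Csf1r (0.052) and C1qb (0.057), both with overlap between genotypes. The summed Kupffer level was 15300 and 17418 against 11055 and 6496, with Timd4, one of the markers, at 0 in LXRDKO replicate 2. For all 7 cholangiocyte markers tested each LXRDKO liver exceeded each WT liver, with 0 called in limma and 3 at an unadjusted P value under 0.05, and their sum was 3448 and 4909 in WT and 6027 and 6868 in LXRDKO. Epcam had 74.1 and 115 against 216 and 224 (1.25, adjusted P = 0.155, limma), and Krt7 had 53.6 and 61.1 against 112 and 95.4 (0.84, adjusted P = 0.266, limma). Of 10 stellate cell markers 0 passed in limma and 5 had an unadjusted P value under 0.05, with a sum of 20162 and 22001 against 27793 and 29708. Dcn (0.67, adjusted P = 0.145, limma) and Reln (0.50, adjusted P = 0.157, limma) had the smallest P values. Among 9 hepatocyte markers 0 passed in limma and 1 had an unadjusted P value under 0.05, Hnf4a (0.60, adjusted P = 0.224, limma), and the next was Cyp3a25 (0.31, adjusted P = 0.473, limma). Of the 9, 5 had a negative log2 fold change, and the median was −0.052. DESeq2 called more of these markers, with 1 endothelial and 5 Kupffer cell markers lower in LXRDKO. It called 1 cholangiocyte marker, Epcam (adjusted P = 0.0112, DESeq2), higher. Higher too were 2 stellate cell markers, Dcn (adjusted P = 0.00357, DESeq2) among them, and 1 hepatocyte marker.

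Some of the 10 genes share bases with other annotated genes, and the strand setting of the counting is not given in the sources used here. Fgfr2, which the annotation extends over Oat on the same strand and Lhpp on the other strand, had 2686 and 4105 normalized counts in WT against 2389 and 1728 in LXRDKO. Its highest liver was WT replicate 2, the lowest for Oat and Lhpp. Tbx3os1, antisense to Tbx3, had 644 and 518 in WT and 698 and 460 in LXRDKO. Teddm2, which overlaps Glul on the other strand, had 113 and 53.5 against 91.1 and 89.0 and so had its lowest value in the same liver as Glul. Reads of these overlapping genes could have been assigned to either partner.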

How the data were processed

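RNA from the left liver lobe of 2 WT and 2 LXRDKO mice had been captured with a KAPA Stranded mRNA kit and sequenced as single-end reads, which the authors aligned to mm10 with STAR 2.6.0c and normalized with DESeq2. The deposited signal is normalized counts, that is, reads per gene divided by a size factor per library (0.877 to 1.18). The counting tool is not given in the sources used here. All values (100%) gave whole reads within 0.01 once multiplied by the size factor. Depth was 55772659 to 72842744 reads on genes, and the fewest reads of any of the 10 genes in a liver were 83 (Rhbg).

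Log2(normalized count + 1) was compared with limma 3.58.1 (R 4.3.3, trend, 15578 genes with a mean of at least 10), with Benjamini-Hochberg adjustment over all genes, a threshold of 0.05 and 1 mouse as 1 replicate. Fold changes on this scale understate changes of low genes. DESeq2 1.42.0 and edgeR 4.0.16 were run on recovered reads as alternatives, beside other pseudocounts, filters, scalings and moderation, a replicate block and leaving out each liver. The tools were tested on simulated data. Replicate numbers are not known to pair the mice. Coordinates and exon lengths came from GENCODE M21 (GRCm38), matched by Ensembl identifier, and promoters from RefSeq.

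The 10 genes and all lists were chosen with earlier results of these data known. From each list the genes called by limma were named, or, with none called, the 2 with the smallest unadjusted P values, together with Nr1h3, Nr1h2 and the 3 list genes closest to Glul. Other names were chosen after their values were seen. Protein sequences were not analysed here.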

Additional observations from a re-analysis of the deposited data

How the results depend on the processing

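Under the 12 alternatives that kept all 4 livers, each of the 10 genes kept its direction and stayed above the adjusted P value of 0.05, 120 values in all, the smallest adjusted P being 0.188 for Axin2 in DESeq2. Scaling to the library total moved the median of all genes to 0.05 and turned no gene. The number of genes called over the table was 50, and it was 25 with a minimum of 50 normalized counts, 1 without the trend (1873 at an unadjusted P under 0.05), 567 with DESeq2 and 2 to 265 when a liver was left out. The labels do not say that livers with the same replicate number are paired. The correlation of deviations between same-numbered livers was 0.0031, and a replicate block gave 90 called genes and called none of the 10.

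Leaving out 1 liver changed calls or directions. Glul ranged from 0.073 to 0.87 in log2 fold change and was called only without WT replicate 1. Slc1a2 ranged from −0.86 to 0.069, was called without WT replicate 2 and turned without WT replicate 1. Tbx3 ranged from −0.19 (without WT replicate 2) to 0.35 and was −0.11 without LXRDKO replicate 2. Rnf43 ranged from −0.051 (without LXRDKO replicate 1) to 0.25 and was −0.015 without WT replicate 2. The median of the 10 genes was 0.043 with WT replicate 2 left out and 0.54 with WT replicate 1 left out, its lowest and highest values. The cause of these shifts was not tested beyond the liver left out. Medians of the other lists moved by more than the spread between replicates in 29 of 208 cases, 20 of them on leaving out a liver. Each genotype had 2 livers, and the fewest reads behind a value of the 10 genes were 83, for Rhbg in WT replicate 2.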
